A study of Saccharomyces cerevisiae with 7 samples.

Results

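The genes described here encode yeast enzymes that make sterols after squalene, fatty acids, phospholipids and sphingolipids. ERG28, also included, encodes a membrane protein that holds some of these enzymes together. They were chosen by name, for their function, from 33 systematic names, and 32 of these had a transcript among the 3196 transcripts of the annotation, 3000 of which are named as protein-coding genes. INO1, which encodes inositol phosphate synthase, was not analysed here. The 32 genes comprised 13 of the late ergosterol pathway, 4 of fatty acid synthesis and desaturation, 5 of very long chain fatty acid elongation, 5 of phospholipid synthesis and 5 of sphingolipid synthesis. The study folded polyA RNA of log-phase Saccharomyces cerevisiae in vitro and cleaved it with RNase V1, which cuts paired bases (4 libraries), or with nuclease S1, which cuts unpaired bases (3 libraries). The titles name the material total RNA, while the source, molecule and protocol labels describe RNA selected for polyA. All libraries came from cells grown at 23 °C, with no strain, genotype or treatment of the cells given in the labels. The data analysed were the authors' positions of each transcript, coding exon and untranslated region (UTR). Cleavage values per library were not analysed here, so the nucleases were not compared, the depth is unknown and no length has a replicate error. Lengths are therefore described beside those of all mRNAs, and no test was run, because genes are not replicates.

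Ergosterol is the main sterol of yeast membranes, and the late pathway turns squalene into it in the endoplasmic reticulum. Fatty acids are built in the cytosol by acetyl-CoA carboxylase and fatty acid synthase, and are then desaturated, elongated and placed into phospholipids or ceramides. Transcription of sterol genes is known to respond to sterol depletion through the zinc cluster factors Upc2 and Ecm22. Phospholipid genes are known to respond to inositol through the factors Ino2 and Ino4, which bind as a pair.

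The late sterol genes were ERG1 (YGR175C), ERG7 (YHR072W), ERG11 (YHR007C), ERG24 (YNL280C), ERG25 (YGR060W), ERG26 (YGL001C), ERG27 (YLR100W), ERG28 (YER044C), ERG6 (YML008C), ERG2 (YMR202W), ERG3 (YLR056W), ERG5 (YMR015C) and ERG4 (YGL012W). The fatty acid genes were FAS1 (YKL182W), FAS2 (YPL231W), ACC1 (YNR016C) and OLE1 (YGL055W), and the elongation genes ELO2 (YCR034W), ELO3 (YLR372W), TSC13 (YDL015C), IFA38 (YBR159W) and PHS1 (YJL097W). The phospholipid genes were CDS1 (YBR029C), CHO1 (YER026C), CHO2 (YGR157W), OPI3 (YJR073C) and PSD1 (YNL169C), and the sphingolipid genes IPT1 (YDR072C), LCB1 (YMR296C), LCB2 (YDR062W), AUR1 (YKL004W) and SUR2 (YDR297W).

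Because the annotation places the start of each transcript, the DNA just upstream of that start can be read for these known elements. The window was the 400 nt before the listed transcript start, read from the R64 reference genome by gene name, and both strands were searched. The sterol element was searched as TCGTATA or TCGTTTA, which differ at a single base. Of the 13 late sterol genes, 13 had at least 1 match, beside 12.4% of the 2678 mRNAs with a 5' UTR and reference sequence. Of the 19 genes of the other branches, 4 had a match. Both forms were core sites already described for Upc2 and Ecm22, TCGTATA from promoters of this pathway, ERG2 and ERG3 among them. The matches thus restate what is known of some members. The match nearest to the transcript start of each late sterol gene is printed with 8 bases on either side, in capitals for the element, reading 5' to 3' on the strand that carries it, with R64 positions.
ERG1 (chrVII:848791-848813, minus strand): gcgggcctTCGTATAgctcggcc
ERG7 (chrVIII:238908-238930, plus strand): gtttataaTCGTTTAggtgaaaa
ERG11 (chrVIII:122175-122197, plus strand): gtttcgttTCGTTTAgggccagc
ERG24 (chrXIV:110672-110694, plus strand): cgggatttTCGTTTAggtgaaaa
ERG25 (chrVII:610103-610125, minus strand): agtgctagTCGTTTAccgtatac
ERG26 (chrVII:496624-496646, minus strand): aaatggtaTCGTTTAaaaatctc
ERG27 (chrXII:341686-341708, plus strand): atttatggTCGTTTAacgaaaga
ERG28 (chrV:238280-238302, plus strand): aattcagtTCGTATAagattagg
ERG6 (chrXIII:253363-253385, minus strand): ttttggcgTCGTTTActgccgtt
ERG2 (chrXIII:667344-667366, plus strand): cacggcccTCGTATAagccgcaa
ERG3 (chrXII:253567-253589, plus strand): attcaggcTCGTATAagtggcac
ERG5 (chrXIII:302843-302865, minus strand): ggtttcccTCGTTTAagtctgcg
ERG4 (chrVII:472632-472654, minus strand): aatgagtcTCGTTTAgttattaa

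The 13 genes held 23 matches, 14 in the direction of the gene and 9 against it. TCGTATA alone was found in 3 genes, TCGTTTA alone in 7 and both forms in 3. More than 1 match lay in 7 of the 13 windows, beside 1.05% of all mRNAs. ERG3, the sterol desaturase gene, had 5 matches, and no other of the 2678 windows had as many. The nearest match lay between 73 nt (ERG26) and 375 nt (ERG25) upstream of the transcript start, with a median of 194 nt. The pair in ERG7, the lanosterol synthase gene, lay 93 and 103 nt upstream, and the flanks of the nearer match in ERG7 and of the match in ERG24 carry the same 8 bases after the element. Both matches of ERG6, the sterol methyltransferase gene, lay beyond the 171 nt gap to the coding region of the neighbour MIN4, and 12 genes remained when windows were cut at the nearest coding region.

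Matches outside the sterol branch were single. They lay upstream of PSD1, the phosphatidylserine decarboxylase of mitochondria, of LCB1 and LCB2, the subunits of serine palmitoyltransferase, and of ELO2, a fatty acid elongase. All 4 pointed against the gene, and the share of 4 in 19 (21.1%) stands beside the 12.4% of all mRNAs.
PSD1 (chrXIV:317946-317968, plus strand): acaattggTCGTATAtgtgccaa
LCB1 (chrXIII:861320-861342, plus strand): taagtaacTCGTATAaagagatg
LCB2 (chrIV:576098-576120, minus strand): tgataataTCGTATActatccgt
ELO2 (chrIII:190360-190382, minus strand): aaataaagTCGTTTAaaatcgga

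The early part of the same pathway, from acetyl-CoA to squalene, gives a neighbour for comparison. Of its 9 genes with a 5' UTR listed, 6 had a sterol element match, each a single match: ERG10, HMG1, ERG8, MVD1, ERG20 and ERG9. The late genes thus had a mean of 1.77 matches per gene and the early genes 0.667, with 0.136 over all mRNAs. This difference was not tested.

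**Figure D1:**
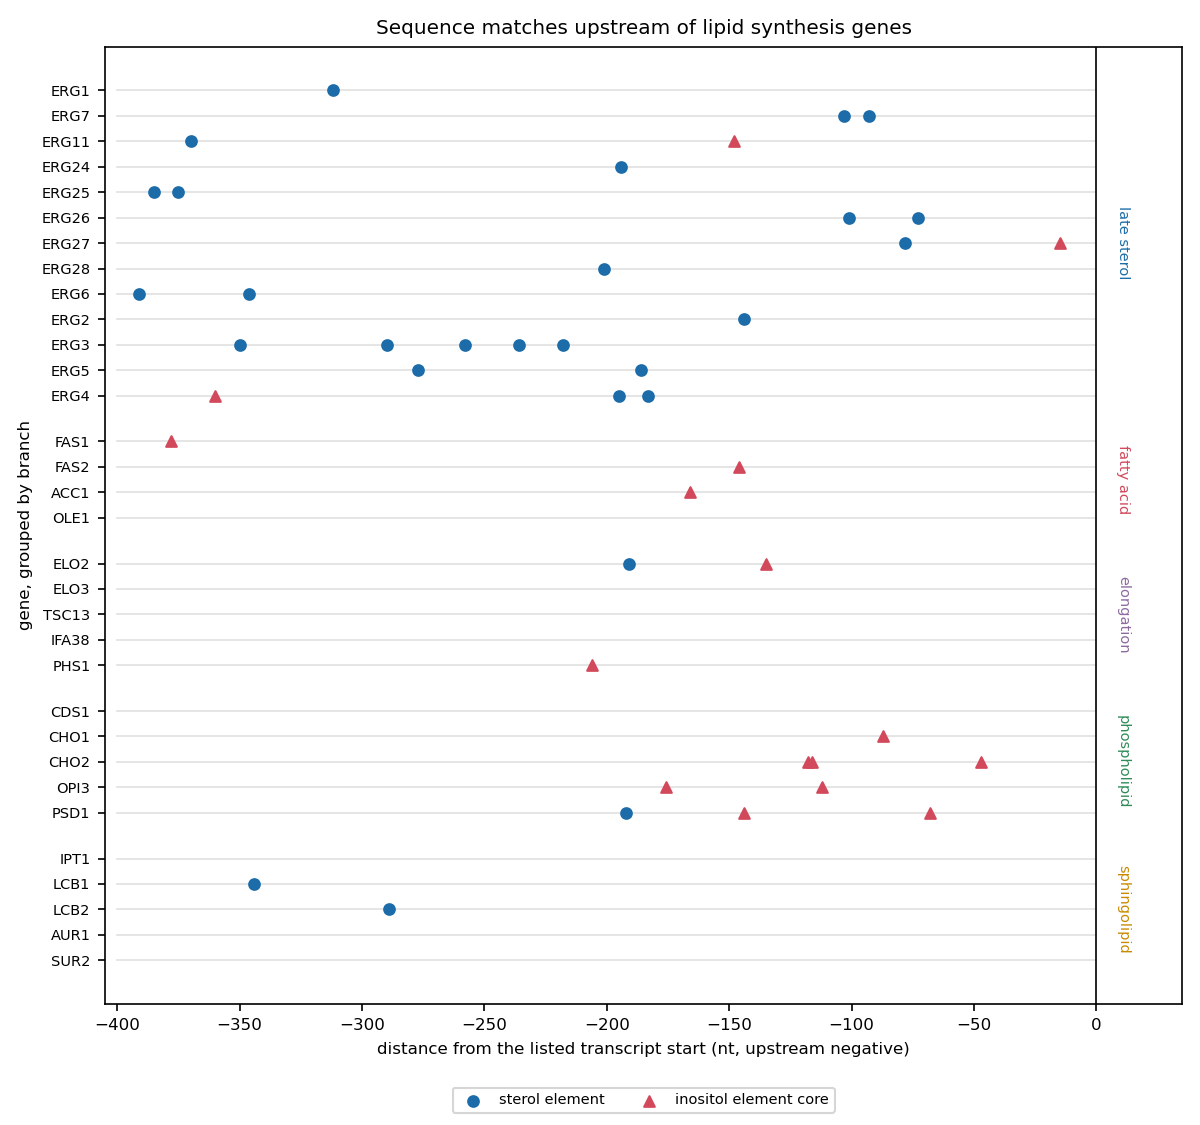
Positions of sequence matches in the 400 nt upstream of the listed transcript start of each of the 32 genes; the horizontal axis is the distance from that start in nt, and each row is a gene. Circles mark the sterol element, found upstream of all 13 late sterol genes, and triangles mark the inositol element core, found upstream of 4 of 5 phospholipid genes and 3 of 4 fatty acid genes.

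The core of the inositol element, CATGTG, was found in 4 of the 5 phospholipid genes, 3 of the 4 fatty acid genes, 2 of the 5 elongation genes, 3 of the 13 late sterol genes and 0 of the 5 sphingolipid genes, beside 11.5% of all mRNAs. A core of 6 bases occurs often in any sequence, and a match is not a bound site. All 11 matches of the phospholipid and fatty acid genes are printed, so that the bases after the core can be compared.
CHO1 (chrV:208620-208641, plus strand): gatgggtcCATGTGaaagctca
CHO2 (chrVII:802165-802186, plus strand): tcccttctCATGTGaagagttc
CHO2 (chrVII:802096-802117, plus strand): ctccgacaCATGTGaatttata
CHO2 (chrVII:802094-802115, minus strand): taaattcaCATGTGtcggagat
OPI3 (chrX:573070-573091, plus strand): caacgatgCATGTGtgggtttg
OPI3 (chrX:573134-573155, minus strand): tgagagtgCATGTGgaaagttg
PSD1 (chrXIV:317822-317843, minus strand): ggcacaagCATGTGgaaaattt
PSD1 (chrXIV:317898-317919, plus strand): ttaccctgCATGTGatatgtga
FAS1 (chrXI:99959-99980, minus strand): ctgggcggCATGTGaagttttt
FAS2 (chrXVI:108412-108433, minus strand): tgaggtagCATGTGaaaacgcg
ACC1 (chrXIV:662077-662098, plus strand): ggccgggcCATGTGaagatttt

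The known element continues with A bases after the core, and 6 of these 11 matches were followed by AA. A pair of the CHO2 matches overlap on opposite strands. CATGTGAA was a form chosen after these sequences had been seen. It was present upstream of CHO1, CHO2, FAS1, FAS2, ACC1 and ELO2, that is in 6 of 32 genes, beside 1.57% of all mRNAs. Because the form was read from matches in these genes, its count in them was partly set by that choice. CHO1 encodes phosphatidylserine synthase and CHO2 the first methyltransferase on the way to phosphatidylcholine. CATGTGAAA was present in CHO1 and FAS2, beside 0.822% of all mRNAs. OPI3, which encodes the methyltransferase that follows CHO2, had 2 cores, neither followed by AA on its 3' side. The farther core, 207 nt before the start codon, lay beyond the 159 nt gap to the coding region of the neighbour MOG1. CDS1, OLE1, ELO3, TSC13, IFA38, IPT1, AUR1 and SUR2 had neither kind of match in this window, which says only that these letters are absent from it. When 600 nt before the start codon were read instead, all 5 phospholipid genes had the core, CDS1 included, beside 15.7% of all mRNAs. In CDS1 those 600 nt lie within its listed leader of 685 nt.

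The 5' UTRs of the lipid genes ranged from 26 nt to 685 nt, with a median of 74 nt beside 50 nt over 2679 mRNAs. Lengths above the median of all mRNAs were listed for 24 of the 32 genes, beside 49.8% of all mRNAs. Among the branches the median was 44 nt for elongation, 64 nt for late sterol, 91 nt for phospholipid, 93 nt for sphingolipid and 207.5 nt for fatty acid genes. The fatty acid value was 94 nt without ACC1, and the geometric mean of the sphingolipid genes was 157 nt. The ranges of all 5 branches overlapped. The 95th percentile of all mRNAs was 234.1 nt, and 5 of the 32 genes lay at or above it, beside 5.00% of all mRNAs. None of these 5 was a sterol gene: they were CDS1, IPT1, ACC1, AUR1 and FAS1.

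**Figure D2:**
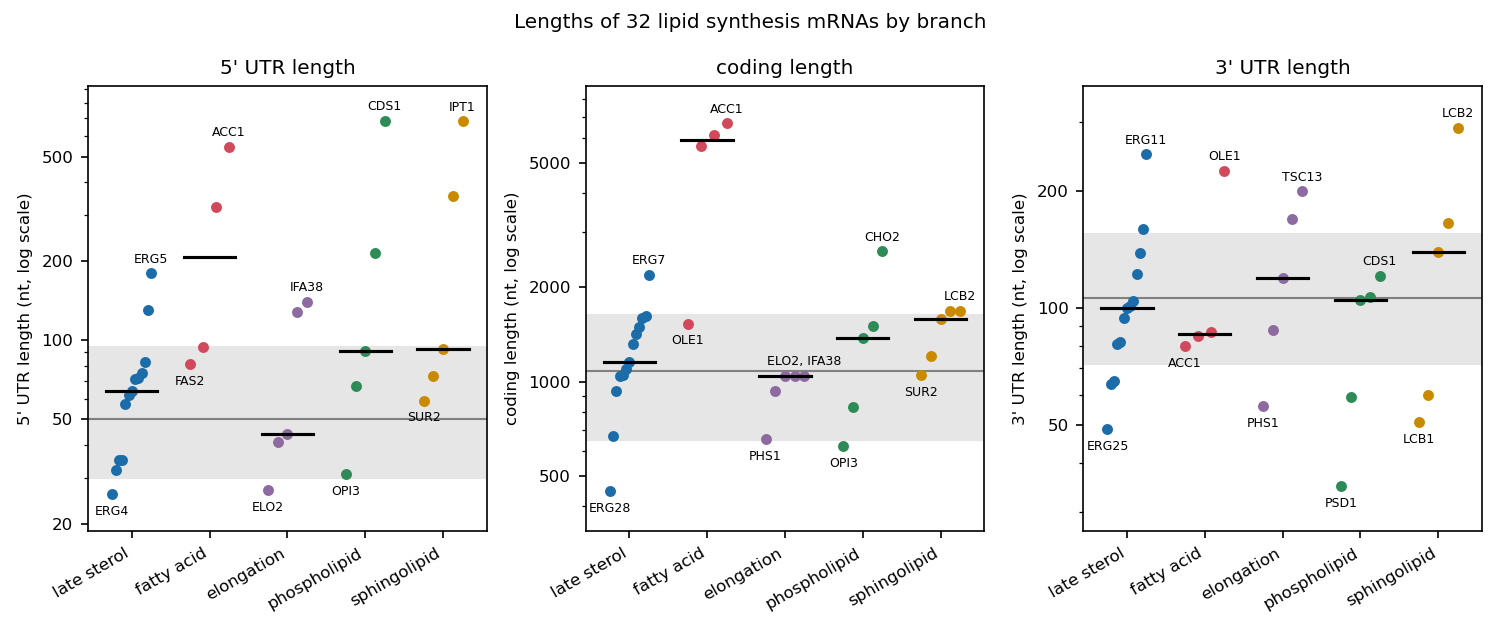
Length in nt (log scale) of the 5' UTR, the coding region and the 3' UTR of each of the 32 mRNAs, by branch; black bars are branch medians, and the grey line and band are the median and quartiles of all mRNAs. The 5' UTR panel has its longest members in 3 branches (CDS1 at 685 nt, IPT1 at 682 nt and ACC1 at 545 nt), the coding panel has ACC1, FAS1 and FAS2 far above all other members, and the 3' UTR panel has the branches overlapping.

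The 5' UTRs of the late sterol mRNAs ran from 26 nt in ERG4, which encodes the last reductase of the pathway, to 180 nt in ERG5. Of the 13, 9 lay above the median of all mRNAs and none reached the 95th percentile. The cytochrome P450 enzymes of the pathway, ERG11 (lanosterol demethylase, the target of azole drugs) and ERG5 (sterol desaturase), had the longest 5' UTRs of the branch at 130 nt and 180 nt. Their coding regions were close in length, 1593 nt and 1617 nt, and their 3' UTRs measured 248 nt and 138 nt. ERG11 thus had the longest 3' UTR of the branch.

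The enzymes that remove a pair of methyl groups from the sterol ring are held together by the membrane protein ERG28. In this complex ERG25 (oxidase) had a 5' UTR of 72 nt, ERG26 (dehydrogenase) 57 nt, ERG27 (ketoreductase) 32 nt and ERG28 71 nt. Their 3' UTRs were 49 nt, 100 nt, 81 nt and 101 nt in the same order. ERG25 had the shortest 3' UTR of the branch. ERG28 had the shortest coding region of all 32 genes, 447 nt, and its UTRs made up more of its transcript than in any other sterol gene, with coding sequence at 72.2%.

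The steps at the start of the branch were ERG1, the squalene epoxidase, with 64 nt at the 5' end and 159 nt at the 3' end, and ERG7, with 83 nt and 94 nt. ERG7 had the longest coding region of the branch, 2196 nt. ERG24, the reductase that follows ERG11, had 75 nt and 82 nt. The later enzymes ERG6 and ERG2, a sterol isomerase, each had a 5' UTR of 35 nt, and their 3' UTRs differed by 1 nt (65 nt and 64 nt). ERG3 had 62 nt and 122 nt. The 3' UTR was longer than the 5' UTR in 11 of the 13 late sterol mRNAs. The exceptions were ERG25 and ERG5.

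The fatty acid branch held 3 of the longest mRNAs of the annotation. ACC1, which encodes acetyl-CoA carboxylase, had a coding region of 6702 nt, the 2nd longest of 3000, with FAS1 at 6156 nt in place 7 and FAS2 at 5664 nt in place 11. FAS1 and FAS2 encode the beta and alpha subunits of fatty acid synthase, which assemble in equal number. Their 3' UTRs were nearly equal, 87 nt and 85 nt, whereas the 5' UTR of FAS1 (321 nt) was 3.96 times as long as that of FAS2 (81 nt). The 5' UTR of ACC1, 545 nt on chromosome 14 at positions 661377 to 661921, was the 8th longest of 2679. OLE1, the fatty acid desaturase, had a coding region of 1533 nt, 94 nt of 5' UTR and 225 nt of 3' UTR, the longest 3' UTR of its branch.

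The elongation cycle makes the very long chains that ceramides carry. The elongases ELO2 and ELO3 had coding regions of 1044 nt and 1038 nt but 5' UTRs of 27 nt and 128 nt, a 4.74-fold difference. The ketoreductase gene IFA38 had a coding region of 1044 nt and a 5' UTR of 140 nt. PHS1, the dehydratase, had the shortest coding region (654 nt) and the shortest 3' UTR (56 nt) of the branch. In TSC13, the enoyl reductase gene, the 5' UTR measured 41 nt and the 3' UTR 199 nt. All 5 coding regions lay below the median of all mRNAs, 1080 nt, beside 49.9% of mRNAs above it.

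Phospholipid genes differed widely at the 5' end. CDS1 makes CDP-diacylglycerol, from which phosphatidylserine and phosphatidylinositol are built. Its 5' UTR spanned 685 nt (chromosome 2, positions 297743 to 298427), the 3rd longest of 2679, and its 3' UTR 121 nt. CHO1 had 67 nt and 105 nt, and PSD1 91 nt and 35 nt. The 3' UTR of PSD1 was the shortest of the 32 and the only member at or below the 5th percentile of all mRNAs, 35.05 nt, beside 5.03% of all mRNAs. CHO2 and OPI3 act one after the other on the same lipid, and CHO2 had the longer 5' UTR (215 nt against 31 nt), coding region (2610 nt against 621 nt) and 3' UTR (107 nt against 59 nt).

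The sphingolipid genes all had 5' UTRs above the median of all mRNAs, from SUR2, the sphinganine hydroxylase (59 nt), to IPT1, which adds the last inositol phosphate head group (682 nt, chromosome 4 at positions 591344 to 592025). AUR1, the inositol phosphorylceramide synthase and the target of the antibiotic aureobasidin A, had 353 nt on chromosome 11 at positions 434870 to 435222. The subunits LCB1 and LCB2 had coding regions that differed by under 1% in length (1677 nt and 1686 nt) and 5' UTRs of 93 nt and 73 nt. Their 3' UTRs differed 5.69-fold, with 51 nt in LCB1 and 290 nt in LCB2 (chromosome 4 at positions 578158 to 578447). The LCB2 3' UTR was the only one of the 32 at or above the 95th percentile, 275 nt, beside 5.07% of all mRNAs.

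**Figure D3:**
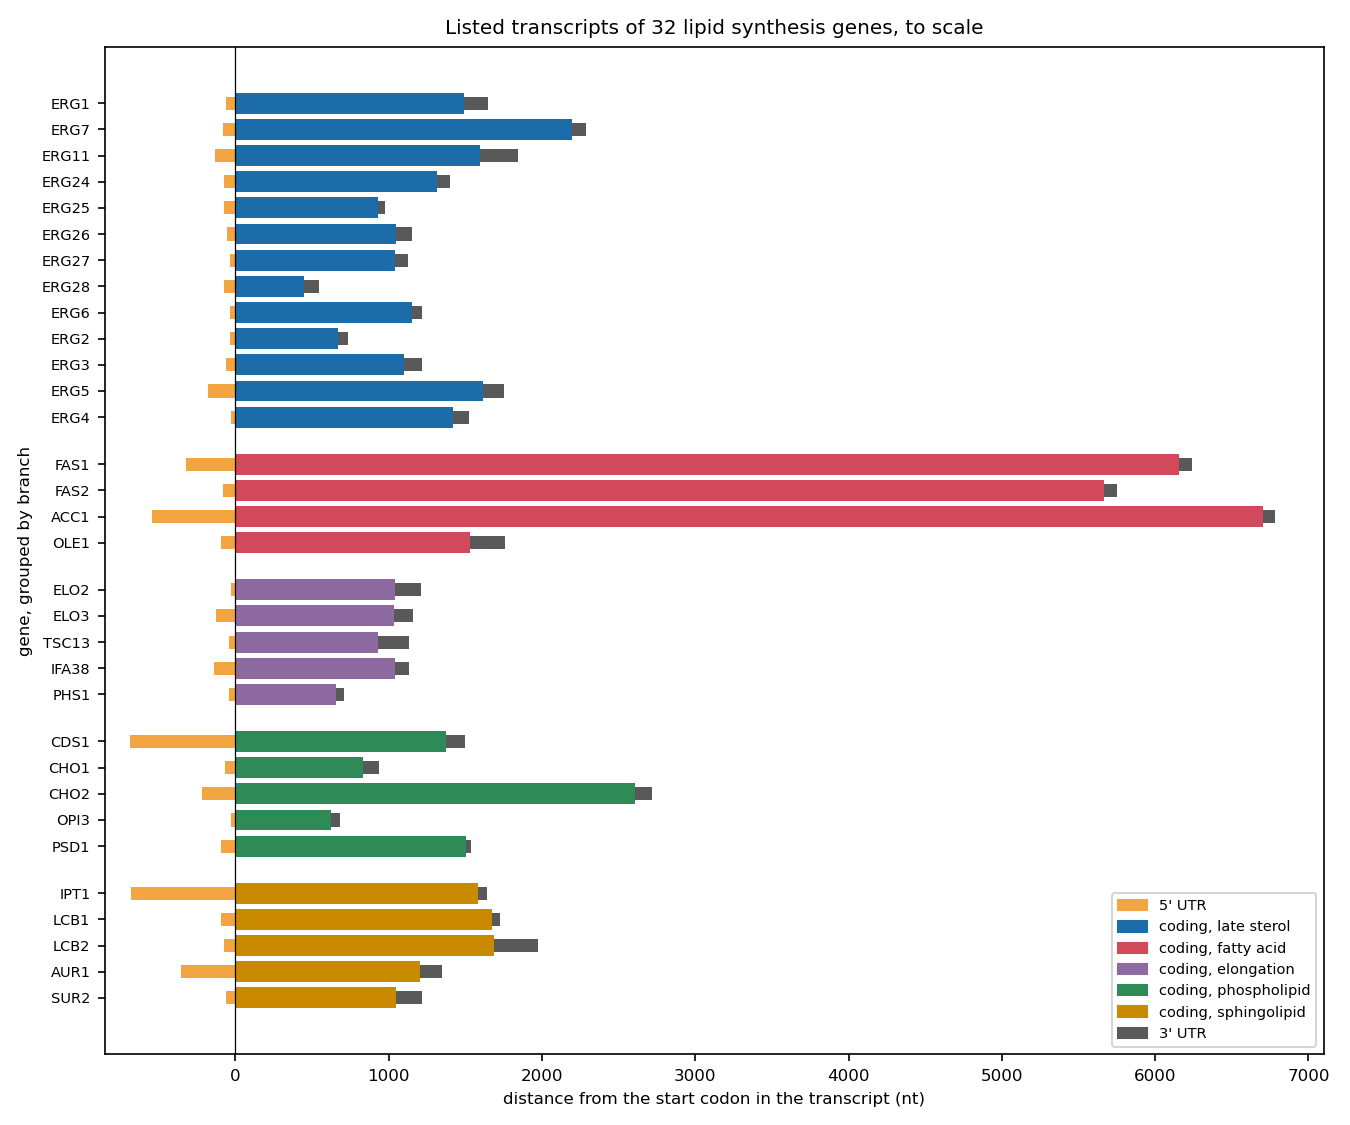
Transcripts of the 32 genes drawn to scale, aligned at the start codon; the horizontal axis is the distance in nt, orange is the 5' UTR, the branch colour is the coding region and dark grey is the 3' UTR. The coding regions of ACC1, FAS1 and FAS2 (5664 nt or more) exceed those of all other members, and the 5' UTRs of CDS1 (685 nt) and IPT1 (682 nt) stand out beside coding regions of 1374 nt and 1584 nt.

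At the 3' end the branches were close to all mRNAs. The medians were 86 nt for fatty acid, 100 nt for late sterol, 105 nt for phospholipid, 119 nt for elongation and 139 nt for sphingolipid genes, beside 106 nt over 2882 mRNAs. In all, 13 of the 32 lay above the median of all mRNAs, beside 49.8%. Median coding lengths were 1038 nt for elongation, 1152 nt for late sterol, 1374 nt for phospholipid, 1584 nt for sphingolipid and 5910 nt for fatty acid genes. For coding length, 19 of the 32 lay above the median of all mRNAs, beside 49.9%. The 5' UTR was the longer UTR in 12 of the 32 mRNAs, beside 24.6% of the 2674 mRNAs with both. These 12 were 2 of the 13 late sterol mRNAs and 10 of the 19 others.

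Across the 32 genes, longer coding regions went with longer 5' UTRs (Spearman rho 0.59, given as a description, over lengths from a single annotation). The value was 0.49 over the 13 late sterol genes, 0.58 over the other 19 and 0.26 over 2679 mRNAs. For the 3' UTR and the coding region, rho was 0.12 over the 32 genes, 0.57 over the late sterol genes and -0.06 over the other 19. Over 2882 mRNAs this rho was -0.03. The 9 mevalonate pathway mRNAs with UTRs had a median 5' UTR of 57 nt and a median 3' UTR of 100 nt, against 64 nt and 100 nt in the late sterol genes.

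Long 5' UTRs can hold ATG triplets upstream of the start codon, which can begin short reading frames. The 5' UTR sequence was taken from R64 as the listed number of bases before the start codon of each gene. It was read without a break, so an intron inside a listed 5' UTR was counted as leader. Splice signals lay in 17 of the 2678 leaders read, and in none of the 32 lipid genes. At least 1 ATG was found in 6 of the 32, beside 15.2% of all mRNAs. CDS1 had 9 and IPT1 had 6, while ACC1, FAS1, IFA38 and ERG7 had 1 each. ERG7 was the only late sterol gene with an upstream ATG, 62 nt before its start codon, and that reading frame closed after 6 codons. The frame in IFA38 closed after 26 codons. The frames in ACC1 and FAS1 closed after 3 and 6 codons. In IPT1 all 6 closed within the 5' UTR, the longest after 31 codons, and in CDS1 8 of 9 closed, the longest after 48 codons, while 1 ran out of frame past the start codon.

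Among 76 mRNAs with 5' UTRs of at least 300 nt, 68.4% held an ATG, with a median of 4, counting any that lie in introns. The lipid genes in this class were CDS1, IPT1, ACC1, AUR1 and FAS1. AUR1 held none in 353 nt, and was the 10th longest of all 5' UTRs without an ATG. CHO2 (215 nt) and ERG5 (180 nt) also held none. Leaders of 200 to 299 nt held an ATG in 43.8% of 121 mRNAs, and those of 100 to 199 nt in 31.8% of 422.

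**Figure D4:**
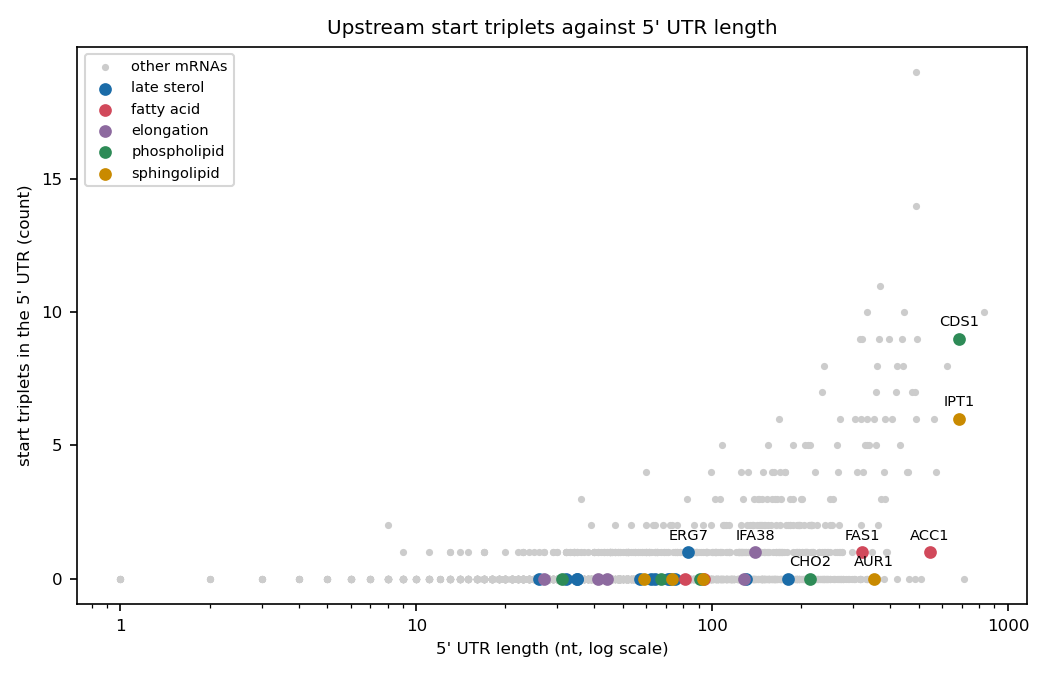
Number of start triplets in the 5' UTR against 5' UTR length in nt (log scale) for 2678 mRNAs, with the 32 lipid genes in colour by branch. CDS1 (9) and IPT1 (6) lie among the higher counts, whereas ACC1 and FAS1 have 1 and AUR1 has 0 at lengths above 300 nt.

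No lipid gene had an intron, beside 6.63% of all mRNAs, and none of the 32 leaders held the yeast splice signals (GTATGT with TACTAAC downstream of it), beside 0.635%. The base composition of the leaders was also read from R64. The late sterol leaders had a median of 38.7% A, and those of the 32 genes 36.7%, beside 38.5% over all mRNAs. The highest shares of A were those of ERG6 (54.3%), ERG1 and ERG27 (53.1% each). ELO3 (18.0%) and AUR1 (22.4%) had the lowest, and their shares of T were 46.9% and 40.5%.

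The 32 genes lay on 12 of the 16 nuclear chromosomes, 17 on the plus and 15 on the minus strand. Overlap with another listed transcript was found for 3 of them, beside 17.1% of all mRNAs. The 3' UTR of ERG24 shared 78 nt with that of HCH1, which encodes a regulator of the chaperone Hsp90 (chromosome 14, 109013 to 109090). The 3' UTR of CHO2 shared 90 nt with that of MTR3, which encodes an exosome subunit (chromosome 7, 805072 to 805161). CDS1 overlapped at its 5' end instead. Its leader shared 200 nt with RKM3, a ribosomal protein methyltransferase gene on the opposite strand (chromosome 2, 298228 to 298427), covering the 64 nt leader of RKM3 and 136 nt of its coding sequence. CDS1 was the only lipid gene whose leader entered neighbouring coding sequence, beside 0.934% of all mRNAs, and no 3' UTR of the 32 did so, beside 7.60%. The start codons of the 5 genes with leaders of at least 300 nt had a median gap of 1029 nt to the nearest upstream coding region, against 562.5 nt over the 32 genes and 446 nt over all listed mRNAs. Leaders seldom entered upstream coding sequence, so a wider gap in genes picked for long leaders was partly set by that choice. Positions on numbered chromosomes are the annotation's own, and neither the labels nor the file name a build for them.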

How the data were processed

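RNA was cleaved with RNase V1 (4 libraries) or nuclease S1 (3 libraries), per the labels; values per library were not analysed here. Per the series design text, the authors deposited an annotation of gene, chromosome, start, end and feature, counted from 1. These deposited positions are in no expression unit (other), and how UTR ends were set, the aligner and the build are not stated in the labels or the file. Each length counts both end positions, and introns as gaps of at least 10 nt between coding exons. Coding length equalled that of RefSeq R64 for 32 of 32 genes, but only 4 first coding bases lay at the R64 position, so coordinates were not mixed. The offset was at most 7 nt for 31 genes and 357 nt for AUR1, whose listed neighbours on both sides, RPL14A and MRP17, were offset by the same 357 nt. Symbols, neighbours and upstream sequence came from R64 by gene name. The reader was tested on simulated data. Named were all 32 genes, with values for extremes, overlaps and pathway partners. Python 3.11.15, numpy 2.4.6, scipy 1.17.1 and matplotlib 3.10.9 were used. The members, branches and lists were chosen with earlier results of these data known, and the 400 nt window after the files had been seen.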

Additional observations from a re-analysis of the deposited data

How the results depend on the processing

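Branch medians were recomputed with UTRs of at least 10 nt, with mRNAs that list both UTRs, as geometric means, and without each branch's longest gene. Of 55 such values, 53 stayed within 1.5 times the median reported. The 10 nt limit and the need for both UTRs could change none of them. All 32 genes list both UTRs, the shortest of 26 nt. Only the geometric means and the values without the longest gene could move, so the count of 53 overstates the stability. The median 5' UTR of fatty acid genes fell from 207.5 nt to 94 nt without ACC1, and the sphingolipid value rose from 93 nt to 157 nt as a geometric mean, which gives IPT1 and AUR1 more weight. The count of 3 overlapping genes was the same at 50 nt or with protein-coding neighbours. Neither alternative could change it, because the overlaps were 78 nt, 90 nt and 200 nt, all with protein-coding genes.

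Alternatives for the sequence matches were chosen after seeing the data. Late sterol genes with a match numbered 13 with windows of 600 nt, 12 with windows cut at the upstream coding region, 9 with windows of 250 nt, which lose ERG1, ERG11, ERG25 and ERG6, 10 when TCGTTTA was the only form searched and 6 when TCGTATA was. The shares of all mRNAs were then 16.4%, 10.8%, 8.55%, 7.21% and 5.64%. Reading 600 nt before the start codon gave 13 late sterol genes and 7 genes of the other branches, beside 17.3% of all mRNAs. In the other branches the 4 genes became 2 with 250 nt and 1 when TCGTTTA was the only form searched. For the inositol core, the 4 phospholipid genes became 1 for CATGTGAAA and 2 for CATGTGAA, and the 3 late sterol genes became 0 for either. With 600 nt read before the start codon, the core was found in 5 phospholipid and 3 late sterol genes, beside 15.7% of all mRNAs. No paired analysis was possible because the annotation belongs to no library, and the alternative for RNase V1 against nuclease S1 was not run. Depth could not be weighed.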
